A study of Mus musculus with 14 samples.

Results

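The Hox genes are the 39 homeobox genes of the HoxA, HoxB, HoxC and HoxD clusters. They were taken as every gene name on the array made of Hox, a cluster letter from a to d and a paralogue number, which gave 39 of 36413 gene names: 11 of HoxA, 10 of HoxB, 9 of HoxC and 9 of HoxD. Expression was measured on 14 single-colour Agilent mouse arrays in 7 groups of 2. D2A1 cells, a mouse breast cancer line, were grown alone, with WT mouse embryonic fibroblasts (MEFs, genotype Hsf1 +/+) or with Hsf1 null MEFs (Hsf1 -/-). Both MEF genotypes were grown alone or with D2A1 cells. All cultures ran for 72 hours in DMEM with 10% FCS, and co-cultured cells were parted by flow sorting before RNA extraction. Where the D2A1 cells were to be profiled, their MEF partners had first been exposed to 10 ug/ml mitomycin C for 2 hours. HSF1, the gene product missing from the null MEFs, is the main transcription factor of the heat shock response, and the study asked how much of the effect of co-culture on either cell type depends on it. The labels give no strain, embryo age, body region or number of embryos for the MEFs, so genotype and MEF stock cannot be told apart. They also do not say whether replicates A and B were separate cultures. The p-values therefore measure only the spread between these samples, which may be technical.

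Hox genes encode transcription factors that give cells of the embryo their position along the body axis. Genes at the 3′ end of a cluster (low paralogue numbers) are used towards the head, and genes at the 5′ end (high numbers) towards the tail, the far end of the limbs and the genital region. Fibroblasts keep much of this pattern in culture, so that cells taken from different body sites carry different sets of active Hox genes. On the array, the HoxA probes lay on chromosome 6 (52105392 to 52209039), HoxB on chromosome 11 (96057854 to 96228510), HoxC on chromosome 15 (102759058 to 102867272) and HoxD on chromosome 2 (74509248 to 74603059), all in mouse build mm9. Exon and UTR positions of the probes were not analysed here.

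Sequences directly upstream of 4 Hox genes are shown because the genes represent the patterns described below: Hoxa2 was higher in D2A1 cells, Hoxb8 in WT MEFs and Hoxd11 in null MEFs, and Hoxd13 was above background in both MEF genotypes but not in D2A1 cells. Each is the stretch of 250 bases before an annotated start, from RefSeq (GRCm38.p6), read 5′ to 3′ on the strand of the gene. Capitals mark matches on either strand to TGACAG (the Meis site), TGATNNAT (the joint site of Pbx and Hox proteins) or TATAAA (core of the TATA box).
Hoxa2, chr6:52164832-52165081, minus strand: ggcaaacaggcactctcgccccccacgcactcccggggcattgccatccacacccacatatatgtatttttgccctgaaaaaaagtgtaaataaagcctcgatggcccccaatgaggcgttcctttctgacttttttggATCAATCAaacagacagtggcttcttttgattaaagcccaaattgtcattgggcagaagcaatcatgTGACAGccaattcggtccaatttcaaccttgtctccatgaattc
Hoxb8, chr11:96281655-96281904, plus strand: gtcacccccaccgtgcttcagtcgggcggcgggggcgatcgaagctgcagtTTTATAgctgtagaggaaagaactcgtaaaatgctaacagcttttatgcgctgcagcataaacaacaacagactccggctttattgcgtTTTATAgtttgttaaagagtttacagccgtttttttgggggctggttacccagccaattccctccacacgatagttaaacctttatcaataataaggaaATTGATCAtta
Hoxd11, chr2:74682073-74682322, plus strand: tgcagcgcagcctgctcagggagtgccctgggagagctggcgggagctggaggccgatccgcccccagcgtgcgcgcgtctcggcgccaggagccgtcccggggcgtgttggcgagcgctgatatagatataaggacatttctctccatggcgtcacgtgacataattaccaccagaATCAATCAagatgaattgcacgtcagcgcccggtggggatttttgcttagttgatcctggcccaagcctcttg
Hoxd13, chr2:74667975-74668224, plus strand: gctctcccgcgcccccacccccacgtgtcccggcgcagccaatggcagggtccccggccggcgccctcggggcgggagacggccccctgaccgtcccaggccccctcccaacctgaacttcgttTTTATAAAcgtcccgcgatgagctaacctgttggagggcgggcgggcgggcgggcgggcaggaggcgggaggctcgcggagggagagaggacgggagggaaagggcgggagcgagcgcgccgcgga
RefSeq entries were found for 22 of the 39 genes, 24 windows in all. Hoxd11 had another window, chr2:74679308-74679557, that is not shown and held none of the marked letters. The Pbx and Hox letters were present in 4 of 24 Hox windows (Hoxa2, Hoxb1, Hoxb8 and Hoxd11), against 7.68% of the 32851 windows of the same length over all genes. The Meis letters were present in 2 (Hoxa2 and Hoxa3, against 15.9% of all windows) and the TATA letters in 4 (Hoxa10, Hoxb8, Hoxd4 and Hoxd13, against 12.4%). In the Hoxd13 window the TATA letters of both strands overlap in a single run of capitals. The heat shock element GAANNTTC, the kind of site HSF1 binds, was in 0 of 24 windows, against 6.69% of all windows. These matches are letters in a short window and no evidence of binding or of its absence. The Hox windows held a median of 12.5 CG dinucleotides, against 6 over all windows.

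Levels below are the authors' log2 values, given as replicate A and then replicate B. They compare samples for 1 gene and not genes with each other. Some libraries stood apart. Tumor cells alone A and tumor cells with null MEFs A had faulty scanner files, in which 32.1% and 36.8% of spots were outliers by the scanner's own flags, where no other array passed 5.74%. The deposited log2 values of all 14 arrays correlated by at least 0.935, and background flags in those groups rest on replicate B. Null MEFs from co-culture A showed 42 genes typical of WT MEFs at a median of 5.63% of their WT level, against 0.274% on B. Hsf1 itself was at 12.01 and 11.69 in WT MEFs alone and at 10.07 and 9.97 in null MEFs alone, 3.56-fold lower (adjusted p = 1.11e-06), but above background; whether its probe lies in the deleted part is not known. The fibroblast markers were above background for 15 of 15 genes in both MEFs alone (summed log2 level 20.03 to 20.09 in WT and 19.09 to 19.16 in null) and for 9 of 15 in D2A1 cells alone (17.41 to 17.75). Of 15 epithelial markers, D2A1 cells alone had 9 above background, pure WT MEFs also 9 and pure null MEFs 10. That count therefore does not set D2A1 cells apart. Epcam and Cdh1 were above background in no group.

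The pattern of detected Hox genes differed between the 3 pure cultures. WT MEFs had 30 of 39 Hox genes well above background on both arrays, null MEFs 26 and D2A1 cells 12 (replicate B only). When every probe of a gene had to be well above background, the counts were 29, 25 and 10. Of all spots, 60.02% and 61.09% were so flagged in WT MEFs and 61.15% and 61.46% in null MEFs. On the D2A1 array B the share was 53.05%. These shares count spots and not genes. By cluster, WT MEFs had 11 HoxA, 8 HoxB, 7 HoxC and 4 HoxD genes, null MEFs 11, 6, 2 and 7, and D2A1 cells 9, 1, 2 and 0. By position, the 16 genes with paralogue numbers 9 to 13 were detected 11 times in WT MEFs, 9 times in null MEFs and 3 times in D2A1 cells. HoxA members from Hoxa2 to Hoxa7 were detected in each of these cultures. In bulk samples fewer cells that express a gene and less RNA per cell cannot be told apart.

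**Figure D1:**
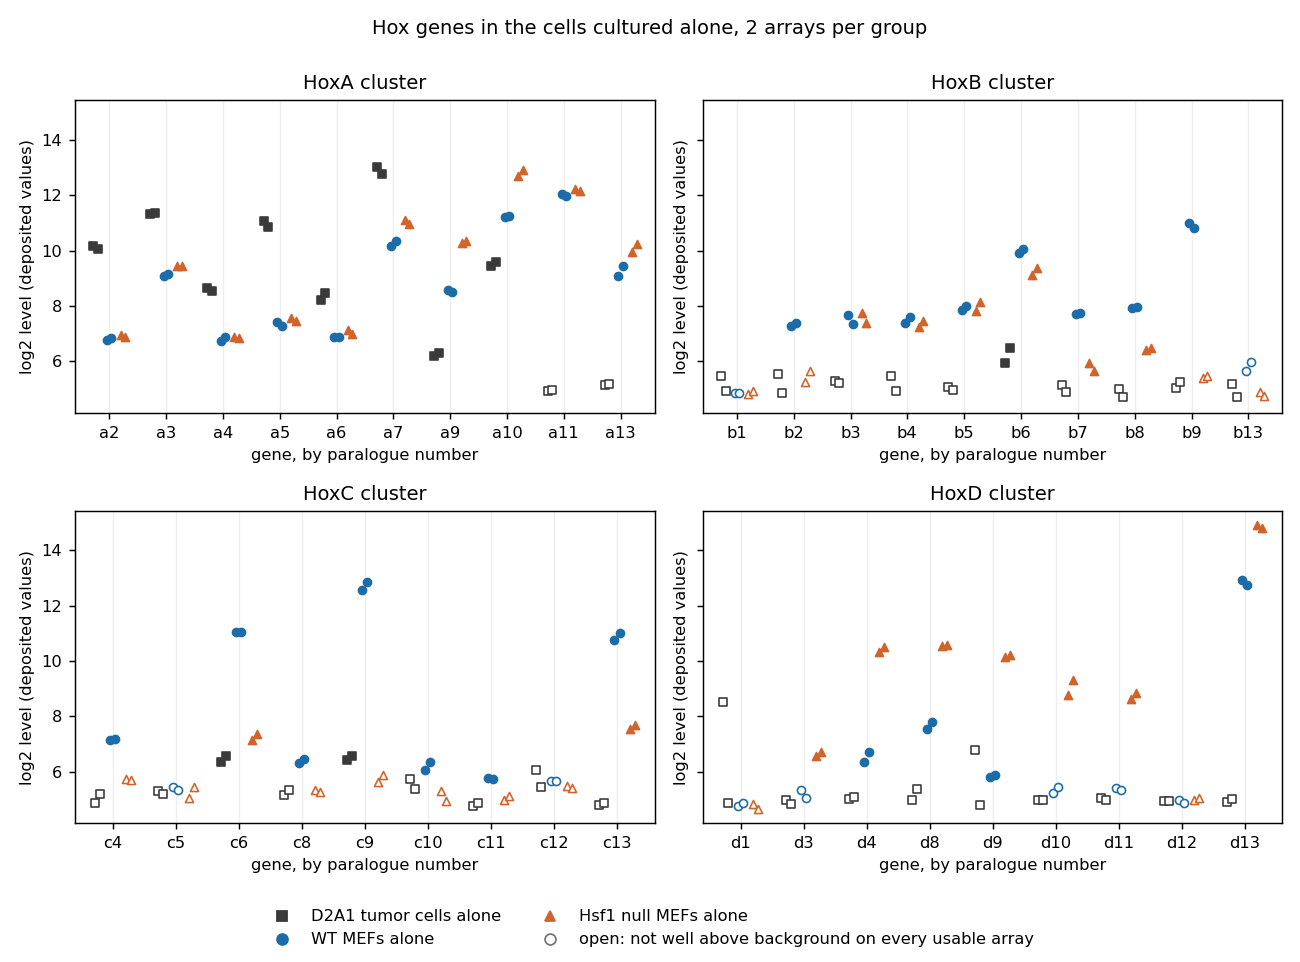
Log2 levels of Hox genes in the 3 pure cultures, by cluster and paralogue number; each point is 1 array (2 per group), and filled points mark genes well above background on every usable array of the group. Hoxa2 to Hoxa7 lie highest in tumor cells, the tested HoxC genes highest in WT MEFs and the tested HoxD genes highest in null MEFs.

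Of the 39 genes, 33 were tested, because they were well above background on both arrays of at least 1 group. That filter keeps a gene through the group in which it is high. The 6 others were Hoxb1, Hoxb13, Hoxc5, Hoxc12, Hoxd1 and Hoxd12. Hoxd1 was at 8.50 in tumor cells alone A, an array with a faulty scanner file, and at 4.86 on B. All tests are limma on the log2 values with Benjamini-Hochberg adjustment over 25853 gene names, and a gene was called at an adjusted p below 0.05. The 10 comparisons share arrays, so they are not independent of each other. Each gene called in a comparison had the same sign on both slides, of which 1 held the A and the other the B replicates.

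D2A1 cells grown alone expressed the front of HoxA, such as Hoxa2 to Hoxa7, above both MEF genotypes, and little else of the 4 clusters. Against WT MEFs alone, 7 Hox genes were higher and 22 lower of 33, where 27.8% and 23.6% of all genes tested were called higher and lower. All 7 were in HoxA, Hoxa2 to Hoxa7 among them, and the median difference of the tested HoxB genes was -2.80 on the log2 scale and of the HoxC genes -2.15, against 0.08 over all genes. Only 1 HoxB and 2 HoxC genes were above background in D2A1 cells, so background limits both medians. Against null MEFs alone, 8 were higher and 20 lower (27.3% and 25.4% of all genes).

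Hoxa5, a regulator of lung, neck and mammary development, was at 11.06 and 10.84 in D2A1 cells, 7.41 and 7.28 in WT MEFs and 7.56 and 7.46 in null MEFs. The D2A1 arrays lay far above the MEF arrays, which lay close together. The difference from WT MEFs was 3.61 ± 0.13 (SE, 2 arrays per group), or 12.2-fold, with an adjusted p of 8.08e-09 (limma). Hoxa2, a selector gene of the second branchial arch, stood at 10.18 and 10.05 in D2A1 cells against 6.75 and 6.83 in WT MEFs, a 10.0-fold difference (3.33 ± 0.11, adjusted p = 4.64e-09). Hoxa3, needed for the thymus and parathyroid, was at 11.32 and 11.37 against 9.07 and 9.16, or 4.70-fold. Hoxa7 was at 13.02 and 12.77 against 10.15 and 10.36, or 6.24-fold. Hoxa4 (8.66 and 8.53) was 3.48-fold and Hoxa6 (8.23 and 8.46) 2.81-fold above WT MEFs. No D2A1 array overlapped a MEF array for any of these genes, all called on these same values, so this is no separate support.

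The rear of HoxA was the reverse. Hoxa9 and Hoxa10, genes of the lumbar and reproductive tract region, were still above background in D2A1 cells but lower. For Hoxa9 this held for 1 of its 2 probes on replicate B (scanner value 6.17), and not for the other (4.59). Hoxa9 was at 6.19 and 6.29 against 8.59 and 8.51 in WT MEFs (4.97-fold lower) and 10.27 and 10.33 in null MEFs (16.6-fold lower). Hoxa10 was at 9.44 and 9.59, 3.29-fold below WT MEFs and 9.82-fold below null MEFs. Hoxa11 and Hoxa13, which pattern the forearm and the hand and foot, were not above background in D2A1 cells. For Hoxa11 the D2A1 arrays gave 4.94 and 4.97 against 12.03 and 11.98 in WT MEFs, a difference of at least 132-fold (adjusted p = 4.34e-09). Such a bound takes the lowest signal well above background, or the gene's own value where higher, for the group not above background. For Hoxa13 it was at least 17.3-fold.

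Only 3 genes outside HoxA were above background in D2A1 cells alone: Hoxb6 (5.93 and 6.47), Hoxc6 (6.33 and 6.58) and Hoxc9 (6.43 and 6.58). They were 13.7-fold, 24.2-fold and 73.4-fold below WT MEFs. The D2A1 values of Hoxc9 lay above those of null MEFs alone (5.63 and 5.86), a difference that was not called. Hoxd13, the gene of the digits and external genitalia, was at 4.89 and 5.01 in D2A1 cells, at least 234-fold below WT MEFs (adjusted p = 1.1e-08) and at least 950-fold below null MEFs. Hoxc10 was called higher and Hoxc4 lower in D2A1 cells than in null MEFs, but neither was above background in either group, and no fold is given.

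The MEF genotypes carried different Hox patterns when each was grown alone. WT MEFs were higher for the HoxC genes and for Hoxb2, Hoxb7, Hoxb8 and Hoxb9, and null MEFs were higher for the HoxD genes and for Hoxa9, Hoxa10 and Hoxa13. In all, 12 Hox genes were higher and 12 lower in WT than in null MEFs of 33 tested, beside 15.9% and 17.9% of all genes. The split followed the clusters. All 7 tested HoxC genes were higher, with a median difference of 1.46, and all 7 tested HoxD genes were lower, with a median of -3.34, where the median over all genes was -0.03. HoxB gave 4 higher and 0 lower of 8, and in HoxA 5 of 11 were lower and 1 higher.

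HoxC genes act in the trunk, hind limb, hair and nails. Hoxc9, a thoracic gene, was at 12.55 and 12.85 in WT MEFs and at 5.63 and 5.86 in null MEFs, where only 1 of 2 arrays was above background. That was a difference of 6.96 ± 0.64 (SE), or 124-fold (limma, adjusted p = 1.07e-05). Hoxc6, a forelimb-level and thoracic gene, was at 11.06 and 11.05 against 7.15 and 7.36, or 13.9-fold (adjusted p = 3.37e-07). Hoxc13, a gene of hair and nail, was at 10.77 and 11.01 against 7.55 and 7.69, or 9.64-fold (adjusted p = 2.58e-06). The WT arrays lay above the null arrays for each of these, by several log2 units. Hoxc4 (7.16 and 7.17 against 5.72 and 5.69) was at least 2.74-fold higher. Hoxc8, Hoxc10 and Hoxc11 were dim in WT MEFs (5.74 to 6.45) and not above background in null MEFs, with bounds of at least 2.11-fold, 2.12-fold and 1.65-fold.

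In HoxB the genes from Hoxb3 to Hoxb6 were detected in both genotypes and were not called, while members on either side were. Hoxb9, which acts in the rib-bearing trunk, was at 10.99 and 10.82 in WT MEFs and at 5.38 and 5.47 in null MEFs, where it was not above background. The difference was at least 44.8-fold (adjusted p = 7.26e-06). Hoxb7 was at 7.69 and 7.74 against 5.95 and 5.66 (3.76-fold, adjusted p = 1.2e-05) and Hoxb8 at 7.94 and 7.96 against 6.39 and 6.47 (2.86-fold, adjusted p = 0.00013). Hoxb2, a hindbrain gene, was at 7.27 and 7.39 against 5.26 and 5.66, at least 3.66-fold. Hoxb6 was at 9.93 and 10.04 against 9.13 and 9.37 (adjusted p = 0.193). For Hoxb3 the array's probes disagreed in sign in this comparison, by 0.55 and -0.80 on the scanner values, so its gene value mixes them.

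HoxD genes are known above all for limb and genital patterning. Hoxd9 was at 5.80 and 5.86 in WT MEFs and at 10.16 and 10.21 in null MEFs, 20.5-fold lower in WT (-4.36 ± 0.51 SE, limma, adjusted p = 6.83e-05). Hoxd4, a gene of the neck region, was at 6.33 and 6.70 against 10.32 and 10.51, or 15.0-fold lower, and Hoxd8 at 7.55 and 7.79 against 10.53 and 10.59, or 7.42-fold lower. Hoxd10 (8.78 and 9.30 in null MEFs) and Hoxd11 (8.63 and 8.83) were not above background in WT MEFs, at least 12.9-fold and 10.1-fold lower. Hoxd3, at the 3′ side of the cluster, was at 5.33 and 5.05 against 6.58 and 6.70, at least 2.74-fold lower. Hoxd13 was above background in both, at 12.92 and 12.74 in WT MEFs and 14.92 and 14.79 in null MEFs, 4.07-fold lower in WT (adjusted p = 0.000408). The genotypes did not overlap for any of the 7 genes, all called on these same values, so this is no separate support.

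HoxA was on in both genotypes from end to end, and its differences were smaller. Hoxa9 (8.59 and 8.51 in WT, 10.27 and 10.33 in null) was 3.35-fold lower in WT MEFs and Hoxa10 (11.22 and 11.26 against 12.70 and 12.93) 2.98-fold lower (adjusted p = 7.82e-05 and 5.17e-05). Hoxa13 (9.09 and 9.46 against 9.95 and 10.22), Hoxa7 and Hoxa3 were lower by 1.75-fold, 1.71-fold and 1.26-fold. The call of Hoxa3 was lost on leaving out any of its 4 arrays (adjusted p = 0.0629 to 0.157), and that of Hoxa13 without WT MEFs alone A or null MEFs alone B (0.0876 and 0.0779). Hoxa11 differed by -0.17 (adjusted p = 0.653), and its 4 arrays lay between 11.98 and 12.22.

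**Figure D2:**
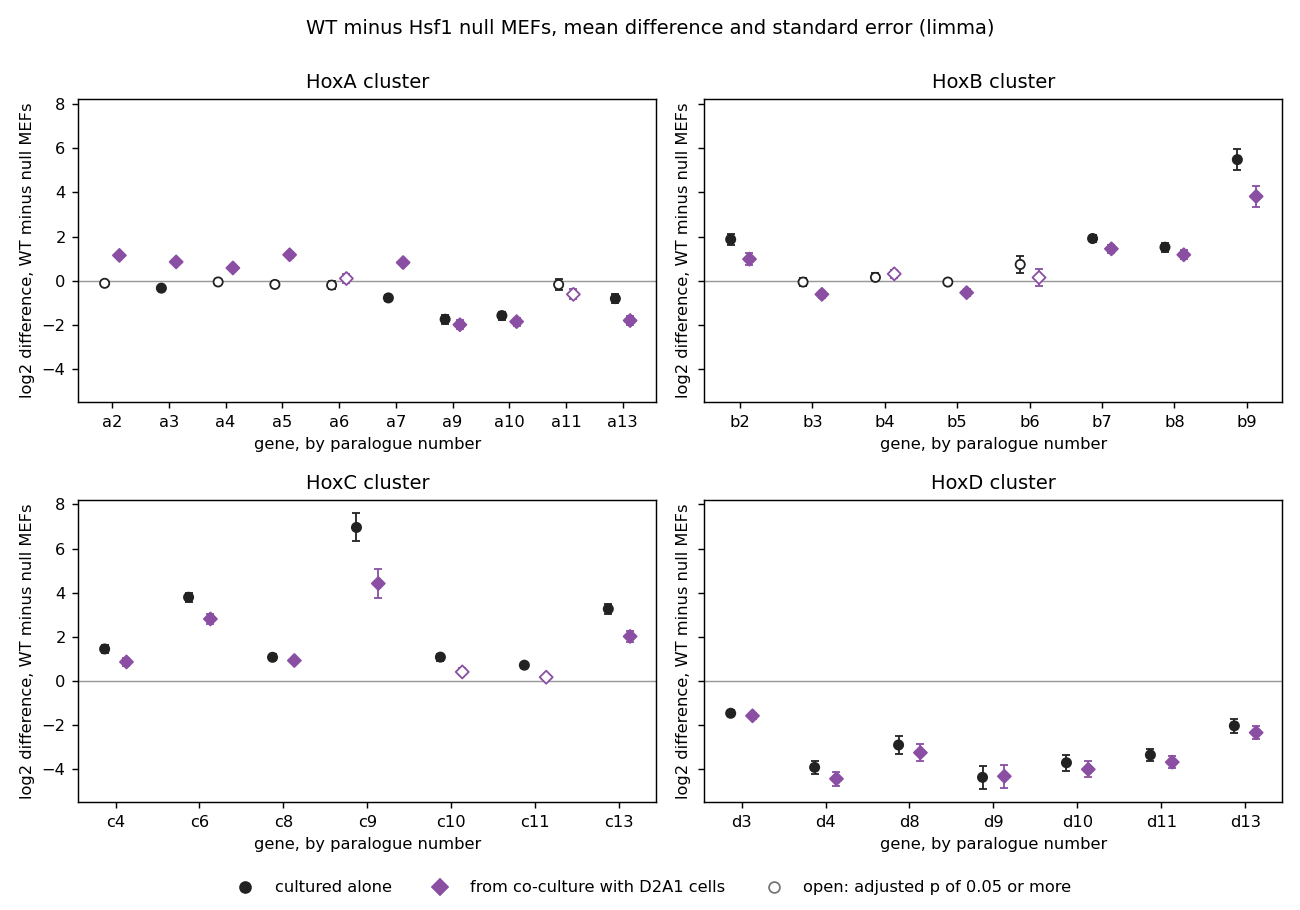
Log2 difference between WT and null MEFs for the tested Hox genes, by cluster and paralogue number, alone (circles) and after co-culture (diamonds); bars are SE from the limma fit (2 arrays per group) and open symbols have an adjusted p of 0.05 or more. HoxC genes lie above 0 and HoxD genes below 0 in both settings, and Hoxc9 is farthest from 0 with both genotypes alone.

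MEFs sorted from co-culture showed the same split of HoxC and HoxD. WT MEFs were higher than null MEFs for 15 Hox genes and lower for 12 (14.8% and 14.8% of all genes): 5 HoxC genes were higher and 0 lower, and 7 HoxD genes were lower and 0 higher. Hoxd9 was at 5.70 and 5.69 in WT and 9.92 and 10.08 in null MEFs, 19.8-fold lower in WT. Hoxd4 was 21.4-fold and Hoxd13 5.03-fold lower, and Hoxd10 and Hoxd11 at least 15.9-fold and 12.7-fold. Hoxa9, Hoxa10 and Hoxa13 were 3.98-fold, 3.61-fold and 3.49-fold lower. Hoxc6 was at 10.03 and 10.26 against 7.69 and 6.98, or 7.03-fold higher in WT.

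For Hoxc9 and Hoxb9 the null arrays differed from each other. Null MEFs from co-culture gave 8.57 and 5.77 for Hoxc9 and 7.25 and 5.18 for Hoxb9, with A the higher array, the same array on which WT-typical genes were raised. The WT arrays were at 11.43 and 11.76 for Hoxc9, 21.4-fold higher (adjusted p = 0.00041), and 56.6-fold higher without null MEFs from co-culture A. For Hoxb9 they were at 10.14 and 9.92, 14.1-fold higher, and 28.8-fold higher without that array. The fold without the B array instead was 8.11 for Hoxc9 and 6.90 for Hoxb9. The calls of Hoxa4, Hoxb2, Hoxb3 and Hoxb5 were lost when single arrays were left out, while their folds changed less. Without null MEFs from co-culture A, Hoxa4 was 1.28-fold higher (adjusted p = 0.0627), Hoxb3 1.51-fold lower (0.0684) and Hoxb5 1.42-fold lower (0.082). Without B, Hoxb2 was 1.61-fold higher (adjusted p = 0.133), Hoxb3 1.56-fold lower (0.0542) and Hoxb5 1.49-fold lower (0.0517). The part of WT RNA in the Hox values of that array was not tested.

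For the front of HoxA the calls were not the same in both settings. Hoxa7 was lower in WT than in null MEFs alone, as was Hoxa3, whose call was lost without any 1 of its 4 arrays, and after co-culture Hoxa2, Hoxa3, Hoxa4, Hoxa5 and Hoxa7 were higher. In WT MEFs sorted from co-culture, 6 Hox genes were higher than in WT MEFs alone and 7 lower (6.32% and 4.21% of all genes). The 6 that rose were all in HoxA and included those 5 genes, and those that fell were Hoxa13, Hoxb3, Hoxb5, Hoxc4, Hoxc6, Hoxc11 and Hoxc13. In null MEFs 3 rose and 0 fell (2.82% and 0.333% of all genes; limma, 6 and 0 at an unadjusted p below 0.05). With any 1 of the 4 WT MEF arrays left out, 5 Hox genes were called in WT MEFs, 4 higher and 1 lower. Hoxa2, Hoxa3, Hoxa5 and Hoxa7 were called whichever array was left out, and Hoxa4, Hoxa13 and the HoxB and HoxC genes were not.

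Hoxa5 was at 7.41 and 7.28 in WT MEFs alone and at 10.04 and 9.99 after co-culture, 6.37-fold higher (2.67 ± 0.13 SE, limma, adjusted p = 2.72e-07). In null MEFs it was at 7.56 and 7.46 alone and 8.96 and 8.72 after co-culture, or 2.51-fold higher (adjusted p = 0.000148). Hoxa2 went from 6.75 and 6.83 to 9.17 and 9.24 in WT MEFs (5.32-fold) and from 6.94 and 6.88 to 8.02 and 8.09 in null MEFs (2.22-fold). Hoxa3 went from 9.07 and 9.16 to 10.99 and 11.07 in WT MEFs (3.77-fold) and from 9.45 and 9.45 to 10.09 and 10.26 in null MEFs (1.65-fold). Hoxa7 went from 10.15 and 10.36 to 12.29 and 12.16 in WT MEFs (3.92-fold). In null MEFs it was at 11.09 and 10.97 alone and 11.34 and 11.47 after co-culture, which was not called (adjusted p = 0.247). The groups alone and after co-culture did not overlap for these genes. With 2 arrays per group this says little, as it also held for Hoxa7 in null MEFs, which was not called.

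The test of the difference between the responses called 4 Hox genes, all with a larger rise in WT MEFs, and 0 with a smaller one (1.96% and 1.06% of all genes; 5 and 11 at an unadjusted p below 0.05). Without null MEFs from co-culture B, 5 were called in the first direction and 4 in the other. It was 1.26 ± 0.16 (SE, log2) for Hoxa2, 1.19 ± 0.15 for Hoxa3, 1.34 ± 0.19 for Hoxa5 and 1.60 ± 0.18 for Hoxa7, with adjusted p-values (limma) of 0.00137, 0.0013, 0.00294 and 0.000887. Hoxa4 rose by 1.5-fold in WT MEFs. Hoxa13 fell 2.13-fold in WT MEFs, from 9.09 and 9.46 to 8.15 and 8.22 (adjusted p = 0.00557), and Hoxc13 fell 2.04-fold. The other genes that fell, in HoxB and HoxC, did so by at most 1.88-fold.

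**Figure D3:**
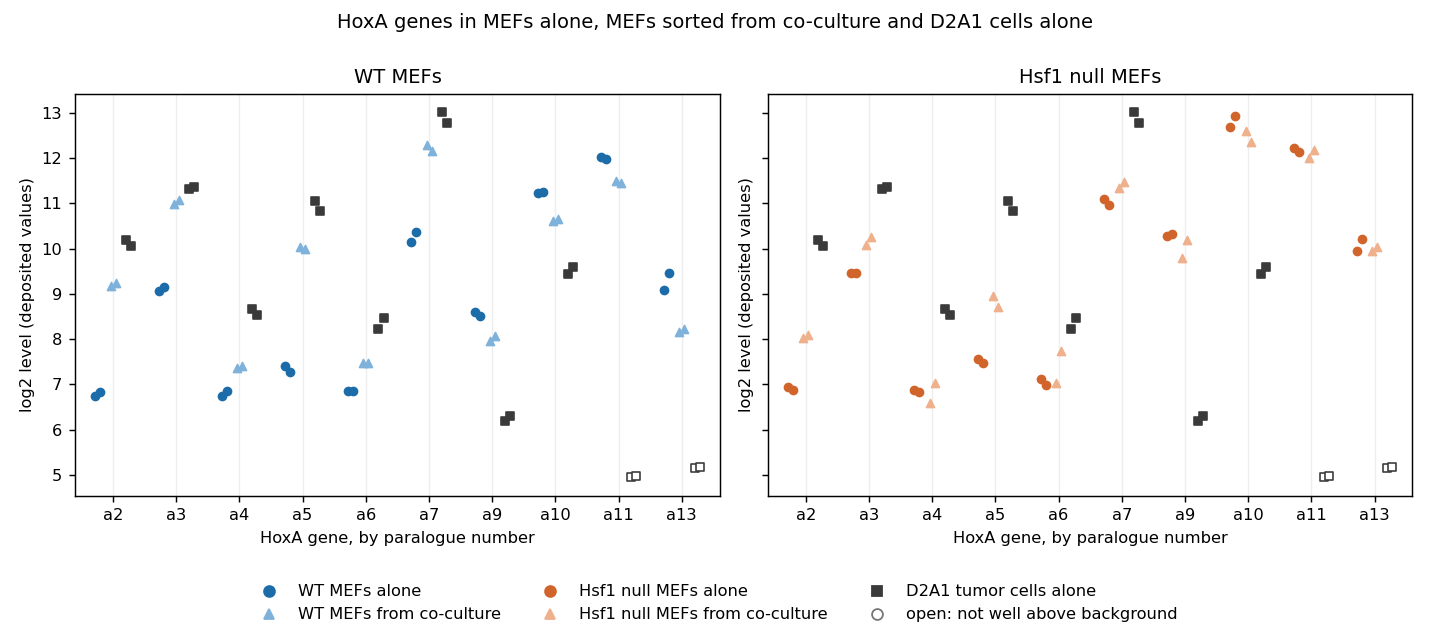
Log2 levels of HoxA genes in MEFs alone, MEFs sorted from co-culture and D2A1 cells alone, for each MEF genotype; each point is 1 array, 2 per group. For Hoxa2, Hoxa3, Hoxa5 and Hoxa7 the sorted WT MEFs lie between WT MEFs alone and D2A1 cells, and the sorted null MEFs lie nearer to null MEFs alone.

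The genes that rose in sorted MEFs are genes that D2A1 cells express more than MEFs. Other D2A1-typical genes rose in the same arrays. Of 77 genes outside the Hox clusters that were at least 32-fold above WT MEFs in D2A1 cells, the median in sorted WT MEFs stood at 34.0% and 34.0% (A and B) of the way from the WT MEF level to the D2A1 level, on the linear scale. The quartiles were 25.4% to 50.1% and 20.3% to 52.1%. On the same scale Hoxa2 stood at 46.3% and 49.2%, Hoxa5 at 48.7% and 47.1%, Hoxa7 at 59.2% and 52.1% and Hoxa3 at 72.0% and 77.7%. In sorted null MEFs the median of 90 such genes was 6.87% and 7.72%, with Hoxa2 at 14.1% and 15.4% and Hoxa5 at 17.5% and 13.3%. The summed epithelial markers went from 10.58 to 10.72 in WT MEFs alone to 16.18 to 16.39 after sorting, and from 12.08 to 12.34 to 14.78 to 15.34 in null MEFs. The sum gives most weight to its brightest genes. Of 12 tested markers 3 were higher and 2 lower in sorted WT MEFs (median 0.06), beside 6.32% and 4.21% of all genes. In sorted null MEFs 1 was higher and 0 lower (median 0.01), beside 2.82% and 0.333% of all genes. Genes typical of WT MEFs fell by a median of 0.73 and 0.67 on the log2 scale in sorted WT MEFs. The part of D2A1 RNA in the Hox values of sorted MEFs was not tested.

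**Figure D4:**
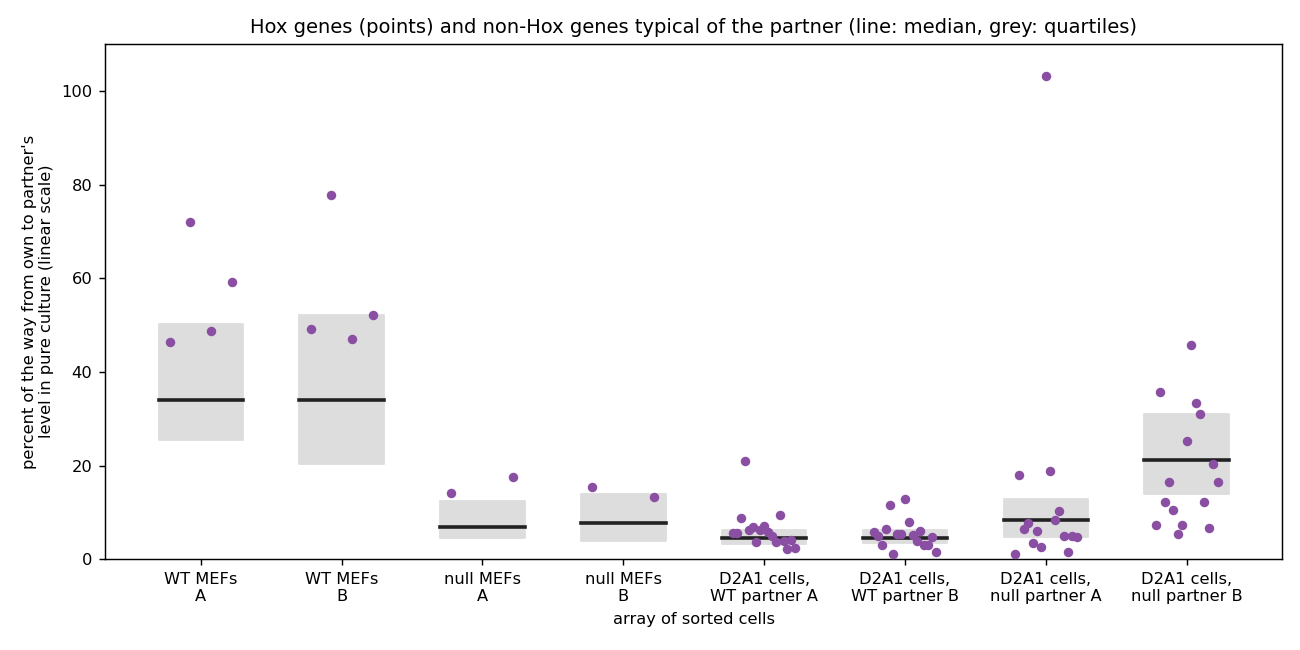
Position of Hox genes (points) between the pure culture of a cell type (0) and that of its partner, as a percentage on the linear scale, on each of the 8 arrays of sorted cells; the line and bar give the median and quartiles of genes outside the Hox clusters that are typical of the partner. Hoxa3 lies above the quartiles in sorted WT MEFs, and Hoxb6 lies near the level of null MEFs (103%) in tumor cells with null MEFs A.

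D2A1 cells sorted from co-culture showed Hox genes that pure D2A1 cells lacked, and the set differed with the partner. After culture with WT MEFs, 17 Hox genes were above background on every usable array, and with null MEFs 22, against 12 in D2A1 cells alone. These counts are not fully alike: the first needs both arrays, and the other 2 rest on replicate B only. On at least 1 array the count with WT MEFs was 19. Of all spots, 53.2% and 54.5% were well above background with WT MEFs (A and B). On the B arrays the share was 58.7% with null MEFs and 53.05% in D2A1 cells alone. Against D2A1 cells alone, 8 Hox genes were higher and 0 lower with WT MEFs (7.04% and 4.76% of all genes; limma, 13 and 0 at an unadjusted p below 0.05), and 12 higher and 3 lower with null MEFs (10.1% and 9.61%). HoxD held 1 of the genes that rose with WT MEFs and 6 of those that rose with null MEFs.

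Hoxd13 was at 4.89 and 5.01 in D2A1 cells alone, 8.39 and 8.56 with WT MEFs and 10.57 and 11.84 with null MEFs. The 3 groups did not overlap. It was at least 11.4-fold higher with WT MEFs and at least 75.8-fold higher with null MEFs (limma, adjusted p = 5.39e-05 and 2.67e-07). Hoxa11 was at 4.94 and 4.97 alone, 8.04 and 8.07 with WT MEFs and 9.75 and 10.71 with null MEFs, at least 8.58-fold and 38.7-fold higher. Hoxa13 rose from 5.15 and 5.18 to 6.11 and 6.03 with WT MEFs and to 6.71 and 7.37 with null MEFs, and Hoxc13 from 4.81 and 4.86 to 6.59 and 6.68 and to 5.91 and 6.72. In each of these the sorted arrays lay above the arrays of D2A1 cells alone.

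Hoxb9 rose with WT MEFs (7.01 and 7.06, at least 3.69-fold, adjusted p = 0.0278) and was not above background with null MEFs (5.39 and 5.73). Hoxc6 (7.41 and 7.23) and Hoxa3 (11.75 and 11.92) also rose with WT MEFs, by 1.82-fold and 1.41-fold. Hoxb7 was called too, though not above background in either group. With null MEFs, Hoxd8 was at 6.76 and 8.39, Hoxd10 at 6.20 and 7.63, Hoxd11 at 6.18 and 7.27, Hoxd9 at 6.91 and 7.96 and Hoxd4 at 5.75 and 6.93, with bounds of at least 5.27-fold, 3.83-fold, 3.28-fold, 3.0-fold and 2.44-fold over D2A1 cells alone. In all 5 the B array was the higher. Hoxa9 (7.38 and 8.08) rose 2.81-fold. Hoxb6 (9.29 and 7.71) rose 4.92-fold, with A the higher array, and 2.85-fold without tumor cells with null MEFs A. Hoxc11 was called with neither group above background. The fold without tumor cells with null MEFs A was 119 for Hoxd13, 9.27 for Hoxd8, 6.29 for Hoxd10 and 3.67 for Hoxd4. Without B it was 49.3, 3.0, 2.33 and 1.62, and Hoxd4 was then not called (adjusted p = 0.0714). For Hoxd9 the arrays of D2A1 cells alone gave 6.78 and 4.78, so its bound is loose: the fold was 6.30 without the first and 1.58 without the second. Its call was lost on leaving out any array other than tumor cells alone A and tumor cells with null MEFs A.

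Hoxa4, Hoxa5 and Hoxa7 fell with null MEFs, by 0.63, 0.67 and 0.45 on the log2 scale. These 3 lower of 33 tested are near the share over all genes (9.61%). Without both arrays with faulty scanner files the count with WT MEFs was 5, and Hoxa3 (0.47 on the log2 scale), Hoxb7 (0.75), Hoxb9 (1.77, adjusted p = 0.134) and Hoxc6 (0.73, adjusted p = 0.132) were no longer called. With null MEFs the count was then 12, and Hoxa4, Hoxa5 and Hoxa7 (-0.63, -0.61 and -0.43) were no longer called. These differences were close in size to those over all arrays, and why their calls were lost was not tested. Hoxb9 also lost its call when replicate A of the tumor cells sorted from WT MEFs, whose scanner file was sound, was left out. Leaving out 1 array at a time, the calls with WT MEFs held throughout for Hoxa11, Hoxc13 and Hoxd13. Hoxd13 and Hoxa11 were called with either partner in every alternative run.

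Tested directly, D2A1 cells with WT MEFs were higher than those with null MEFs for 3 Hox genes and lower for 10 (4.12% and 5.39% of all genes). The 3 higher were Hoxa3 (0.80), Hoxa5 (0.66) and Hoxa7 (0.71). The lower ones were led by Hoxd13, with a difference of -2.73 ± 0.30 (SE, log2, adjusted p = 0.000273), and included 6 HoxD genes, Hoxa9, Hoxa11, Hoxa13 and Hoxb6. Hoxb6 had an adjusted p of 0.0402, and 0.111 without tumor cells with null MEFs A. Hoxa5, Hoxa13, Hoxb6, Hoxd4 and Hoxd9 each lost their call when some array was left out. The fold without tumor cells with null MEFs A was 10.3 for Hoxd13, 8.38 for Hoxd8, 6.11 for Hoxd10, 3.55 for Hoxd4 and 1.62 for Hoxb6, and without B it was 4.29, 2.71, 2.26, 1.56 and 4.82.

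**Figure D5:**
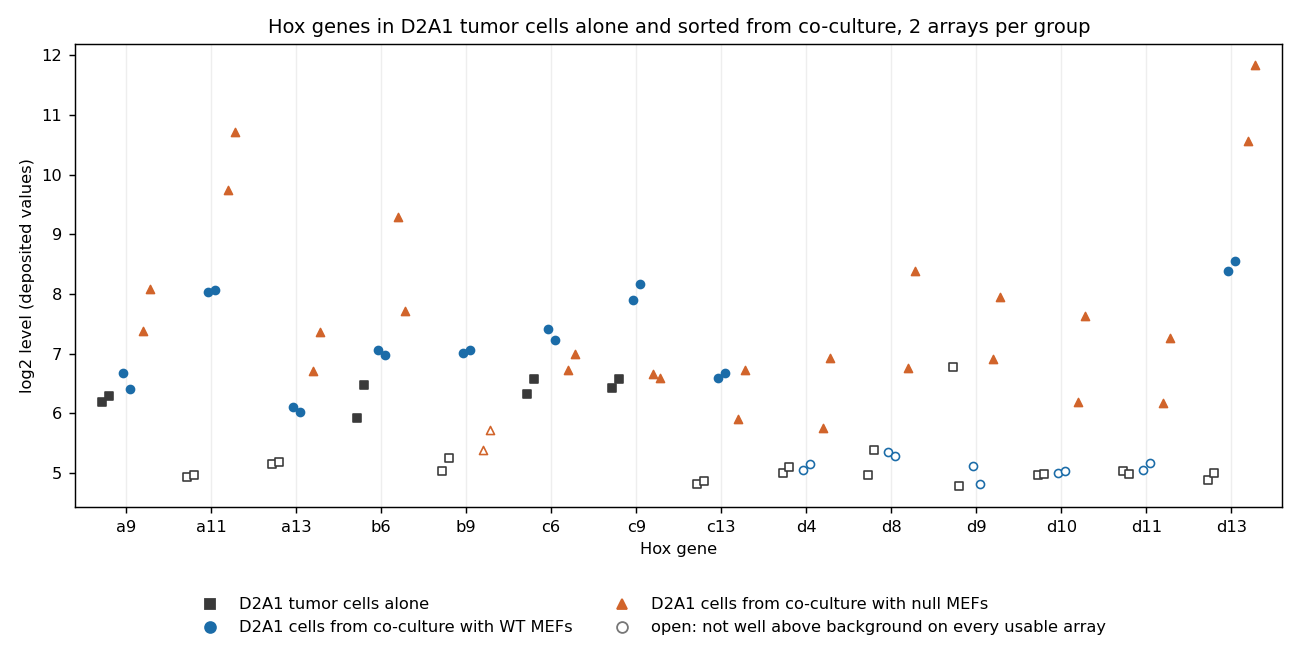
Log2 levels of 14 Hox genes in D2A1 cells alone, with WT MEFs and with null MEFs; each point is 1 array, 2 per group. Hoxd13 and Hoxa11 lie lowest alone, higher with WT MEFs and highest with null MEFs, and Hoxb9 is raised with WT MEFs.

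Apart from Hoxa3 with WT MEFs and Hoxc11 with null MEFs, the Hox genes that rose in sorted D2A1 cells were also lower in D2A1 cells alone than in the MEF partner alone. Genes outside the clusters that were at least 32-fold higher in the partner stood at a median of 4.57% and 4.60% of the way to its level with WT MEFs (325 genes) and 8.48% and 21.3% with null MEFs (248 genes). The Hox genes that were at least 4-fold higher in the partner had medians of 5.69% and 5.18% over 17 genes with WT MEFs, and of 6.12% and 16.4% over 15 genes with null MEFs. With null MEFs, Hoxa11 stood at 18.02% and 35.8% and Hoxc13 at 18.9% and 45.7%, above the upper quartiles of the other genes on both arrays (12.9% and 31.0%). Hoxb6 was at 103% on A, an array with a faulty scanner file, and at 25.3% on B, within the quartiles of the other genes there. Fibroblast markers were above background for 13 of 15 genes with either partner, against 9 of 15 alone. Their summed level was 18.09 to 18.11 with WT MEFs and 17.75 to 18.49 with null MEFs. The part of MEF RNA in the Hox values of sorted D2A1 cells was not tested.

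Pbx, Meis and Pknox proteins bind DNA together with Hox proteins. Of 9 such cofactor genes, 1 was higher and 4 lower in WT than in null MEFs alone (15.9% and 17.9% of all genes), with a median difference of -0.13 (all genes -0.03). Meis1 was at 11.06 and 11.23 in WT MEFs and not above background in null MEFs (5.34 and 5.69), at least 49.5-fold higher (limma, adjusted p = 6.07e-06). In null MEFs from co-culture it was at 7.29 and 5.26, with A again the higher array. Pknox2 was at 8.60 and 8.78 in WT and 11.09 and 11.17 in null MEFs, 5.42-fold lower in WT. Pbx4, Pbx3 and Pbx2 were lower in WT by 3.15-fold, 1.76-fold and 1.40-fold. On co-culture 0 of the 9 were called in either MEF genotype (limma; at an unadjusted p below 0.05, 1 higher and 1 lower in WT MEFs and 0 in null MEFs).

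Polycomb and trithorax proteins keep Hox genes silent or active, and caudal factors switch them on in the embryo. Of 28 such genes, 26 were tested, and 1 was higher and 8 lower in WT than in null MEFs alone (median -0.26), beside 15.9% and 17.9% of all genes. Kdm6b, a demethylase that removes the Polycomb mark, was 2.17-fold lower in WT MEFs (adjusted p = 0.000157), Ezh1 2.09-fold and Ezh2 1.43-fold, the last 2 being methylases that set it. Jarid2, Bmi1 and Wdr5 were lower by 0.71, 0.61 and 0.44 on the log2 scale. After co-culture 0 were higher and 7 lower (14.8% and 14.8% of all genes; limma, 1 and 10 at an unadjusted p below 0.05).

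Other transcription factors of body position also differed between the genotypes. Of 31 on the list, 24 were tested. In WT MEFs alone 12 were higher and 4 lower than in null MEFs (median 0.39; 15.9% and 17.9% of all genes), and after co-culture 10 and 5 (14.8% and 14.8%). The 4 lower of 24 are near the share over all genes. Pitx1, a factor of hind limb identity, was at 13.43 and 13.26 in WT MEFs and not above background in null MEFs alone (5.40 and 5.51), at least 237-fold higher (adjusted p = 7.72e-09). D2A1 cells also had it, at 13.28 and 13.53. In null MEFs sorted from co-culture it was at 10.01 and 9.18. Tbx5, a factor of forelimb and heart, was the reverse: 7.01 and 7.11 in WT and 12.27 and 11.94 in null MEFs, 32.9-fold lower in WT (adjusted p = 2.87e-06). Tbx4, the hind limb relative of Tbx5, was at 11.68 and 11.49 in WT MEFs and not above background in null MEFs (4.74 and 5.05), at least 103-fold higher; it falls outside the naming rule and was chosen after its values were seen. Tbx3 (limb and mammary gland), the nuclear receptor Nr2f1 and Osr1 (kidney and limb connective tissue) were 53.6-fold, 30.7-fold and 13.7-fold higher in WT MEFs alone, and the heart factors Nkx2-5 and Gata6 4.92-fold and at least 4.95-fold. Tbx3 (12.18 and 12.36), Nr2f1 (11.87 and 11.72) and Osr1 (12.99 and 12.93) were all high in D2A1 cells alone as well. Lhx9, a factor of limb and gonad, was lower in WT, by 5.44-fold alone and 5.56-fold after co-culture.

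Transcripts within the clusters that do not code for Hox proteins were named on the array for a few loci, and 4 were tested. Hoxa11as, antisense to Hoxa11, was at 14.95 and 15.11 in WT MEFs, 16.29 and 16.54 in null MEFs and 6.12 and 6.39 in D2A1 cells alone. It was 2.62-fold lower in WT than in null MEFs, while Hoxa11 was not called. In sorted D2A1 cells it was at 10.48 and 10.49 with WT MEFs and 11.89 and 13.37 with null MEFs, 18.8-fold and 82.9-fold above D2A1 cells alone. 0610040B09Rik, in HoxB, was 7.27-fold higher in WT than in null MEFs alone, and 1700109F18Rik, in HoxD, 3.62-fold lower. 2700086A05Rik, in HoxA, was at 8.39 and 8.34 in WT and 8.85 and 8.94 in null MEFs. Hotair, Hottip, Hotairm1, Haglr and Mira were not analysed here.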

How the data were processed

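RNA of 14 samples (0.5 ug each, Cy3) was hybridised to single-colour Agilent arrays. Background-subtracted intensity values per spot were deposited as scanner output of Feature Extraction, version 10.1.1.1 per the file headers and 9.1 per the submitters' processing notes. The authors' value table holds log2 values per gene name; array medians lay between 6.33 and 6.40, and how they were scaled is not given in the sources used here. The scale and direction were checked against the intensities, and the centring stays unknown. The value table was the main source because 2 scanner files were faulty.

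Gene names with any probe well above background (at least 0.5 of its spots flagged so) on both arrays of a group were tested, 25853 of 36413. The background flags came from sound scanner files, those with a median r of at least 0.6 with the others. The 39 Hox genes had 44 probes, and 5 genes had several; none was saturated. A mean per group was fitted with limma 3.58.1 in R 4.3.3 (lmFit and eBayes, 7 residual degrees of freedom), with Benjamini-Hochberg adjustment within each comparison at 0.05. SE is that of the fitted difference. The number of arrays limits the precision. Figures were drawn with matplotlib 3.10.9, and tables joined with pandas 2.3.3. On simulated data for WT against null MEFs alone (25853 genes, 200 of them changed) the fit recovered 67 of 100 genes changed by 1 and 92 of 100 changed by 2 on the log2 scale.

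Values per array were given for the 14 Hox genes with the largest called differences between MEF genotypes, for those called in a MEF response, for the 6 largest calls of each tumor cell comparison and for those detected in D2A1 cells. Of each other list, up to 6 members with the smallest p per comparison of the genotypes were named. The Hox members and the lists were chosen with earlier results of these data known. Alternatives were the filter, quantile scaling, scanner values by 75th percentile or by normexp (offset 50), fits of 1 cell type, the slide as a block and leaving out arrays. Values of 1 gene are not reported here; it stays in the counts and medians.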

Additional observations from a re-analysis of the deposited data

Results flagged for a closer look

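The responses of WT and null MEFs to co-culture differed, by the test of the difference itself (limma, adjusted over all genes), for 4 HoxA genes. The difference was 1.26 on the log2 scale for Hoxa2, 1.19 for Hoxa3, 1.34 for Hoxa5 and 1.60 for Hoxa7, each larger in WT MEFs on both slides. D2A1-typical genes outside the clusters stood at 34.0% of the way to the D2A1 level in sorted WT MEFs and at 6.87% and 7.72% in sorted null MEFs, and their part in these differences was not tested.

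D2A1 cells differed with the genotype of their partner, tested directly, for 13 Hox genes. With WT MEFs they were higher by 0.80 for Hoxa3, 0.66 for Hoxa5 and 0.71 for Hoxa7. The WT minus null partner difference was -2.73 for Hoxd13, -2.47 for Hoxd9, -2.25 for Hoxd8, -1.90 for Hoxd10, -1.61 for Hoxd11 and -1.24 for Hoxd4. It was -2.18 for Hoxa11, -1.19 for Hoxa9, -0.97 for Hoxa13 and -1.48 for Hoxb6. Each gene had the same sign on both slides. Leaving out either array of tumor cells with null MEFs moved the fold of Hoxd13 (10.3 without A, 4.29 without B), Hoxd8 (8.38 and 2.71), Hoxd10 (6.11 and 2.26), Hoxd4 (3.55 and 1.56) and Hoxb6 (1.62 and 4.82) by over 1.5 times. Genes typical of the partner stood at 4.57% and 4.60% of the way to its level in D2A1 cells with WT MEFs. With null MEFs they stood at 8.48% and 21.3%, and their part was not tested.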

How the results depend on the processing

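Of 164 Hox calls over the 10 comparisons, 114 held their direction and their call in every setting run: 21 of 24 for WT against null MEFs alone, 22 of 27 after co-culture, 26 of 29 and 24 of 28 for D2A1 cells against WT and null MEFs, but 4 of 13 for the WT MEF response (Hoxa2, Hoxa3, Hoxa5, Hoxa7), 2 of 3 for the null response, 3 of 4 for the difference of responses, and 2 of 8, 7 of 15 and 3 of 13 for the comparisons of sorted D2A1 cells. Leaving out 1 array at a time gave 5 to 18 Hox genes for the WT MEF response (5 without any 1 of its own 4 arrays), 3 to 5 for the null response, 4 to 9 for the difference of responses and 3 to 10 for D2A1 cells with WT MEFs (4 and 3 without their A and B arrays, 3 without tumor cells alone A). It gave 10 to 16 with null MEFs, 9 to 15 between partners, 22 to 25 for WT against null MEFs alone, 24 to 28 after co-culture, and 28 to 30 and 26 to 29 for D2A1 cells against WT and null MEFs. With the 12 sound scanner arrays scaled by the 75th percentile, the count was 7 for the WT MEF response and 5 for D2A1 cells with WT MEFs; with normexp and quantile scaling the latter was 4, and without the 2 arrays with faulty scanner files 5. With the 1 cell type fitted alone, D2A1 cells with null MEFs gave 9 and the partner comparison 5. For these counts the cause was not tested. Calls that turned were both of genes near background: Hoxc10 in D2A1 cells against null MEFs (-0.066, adjusted p = 0.737, normexp and quantile) and Hoxc11 in D2A1 cells with null MEFs (-0.48, adjusted p = 0.828, 75th percentile). Each letter is also a slide, and same-lettered arrays deviated together, with r over 0.1 in 20 of 21 pairs of groups (0.092 to 0.599, median 0.298); the labels do not say that a letter marks a shared culture or batch, and the fit in the text has no block. With the replicate block the 10 counts were 24, 27, 15, 3, 5, 29, 28, 9, 17 and 13, and no call was lost. Signal over background limits the HoxB, HoxC and HoxD values of D2A1 cells and the HoxC values of null MEFs. It also limits some HoxD values of WT MEFs (Hoxd3, Hoxd10 and Hoxd11), and many of these differences are only bounds.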
